A study of Mus musculus with 9 samples.

Results

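The colon of mice given dextran sulfate sodium (DSS) was compared with the colon of mice given vehicle, across all genes of the authors' count table. The libraries were chosen by their column names, Model 1 to 3 against Normal 1 to 3, and make up 6 of the 9 libraries of the series. All came from the colon of female C57BL/6 J mice of genotype WT. The Normal mice received 0.5% CMC-Na, the carboxymethyl cellulose vehicle, and the Model mice received 5% DSS, each by gavage over 7 consecutive days. The other 3 libraries, from mice given 10 mg/kg atorvastatin by gavage from day 3 to day 7, with no word in the labels on whether they received DSS, entered the fit to share its estimate of the spread and are compared with nothing here. Whether the 3 libraries of a group stand for 3 different mice is not in the labels. The p-values therefore rest on library-to-library spread, part or all of which may be technical. Chemical colitis of this kind models injury by an added agent, and the labels give no readout of disease severity.

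DSS is a sulfated polysaccharide that damages the epithelial lining of the large intestine. Bacteria and their products then reach the lamina propria, where resident macrophages and stromal cells release cytokines and chemokines that recruit neutrophils and monocytes from the blood. The same mice mount a repair response, in which fibroblasts remodel the matrix and supply growth factors to the crypts. The model is widely used for ulcerative colitis.

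The 6 libraries held 72584333 to 91737502 estimated counts, and 16160 of 21720 genes were abundant enough to test. Expression is given as CPM, the counts scaled to a common library size, with effective library sizes from the trimmed mean of M-values. Each gene was tested with edgeR's quasi-likelihood test with Benjamini-Hochberg adjustment over all 16160 genes at a threshold of 0.05. Where 3 values are given for a group, they are those of its libraries 1, 2 and 3 in that order. Log2 fold changes are Model over Normal, ± SE. In bulk RNA, fewer cells of a type and less RNA per cell cannot be told apart, which holds for every gene below. The 15 colon epithelium markers, among them Cdx2, Muc2, Car1 and Slc26a3, were present in all 6 libraries. Of these, 0 passed the test (0 also by DESeq2, by limma-voom and at an unadjusted p under 0.05), with a median log2 fold change -0.19, -0.29 to -0.14 with any 1 library left out.

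Some Model libraries also held RNA of other tissues, which is given first because it touches several results. The list of 23 acinar genes, for the enzymes that the exocrine pancreas secretes, includes near-identical trypsinogens whose counts are uncertain. Together they summed to 1934, 1759 and 279 CPM in Normal 1 to 3. In Model 1 to 3 they summed to 113, 95584 and 40775 CPM. Model 2 and Model 3 were thus far above every other library, and Model 1 was the lowest of the 6. Insulin (Ins2), the hormone of the endocrine pancreas, was also near 0 outside these libraries, with 0, 0 and 0.0514 CPM in Normal 1 to 3 and 0, 13 and 1.33 CPM in Model 1 to 3. The sum of the 9 listed islet genes did not set Model 1 apart from Model 2 and 3. It was 4.88, 6.42 and 6.51 CPM in Normal 1 to 3 and 18.7, 20.6 and 18.8 CPM in Model 1 to 3. None of the 21 acinar genes tested passed the test (9 higher at an unadjusted p under 0.05, 7 higher by DESeq2 and 0 by limma-voom).

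Several genes of the small intestine were high in Model 3 alone. Lactase (Lct) had 0.142, 0.0626 and 0.36 in Normal and 0.0472, 0.11 and 50.3 CPM in Model. Sucrase-isomaltase (Sis) had 0.412, 0.476 and 0.116 in Normal and 0.106, 0.243 and 47 CPM in Model. The lipoprotein gene Apoa1 had 0.128, 0.213 and 0 in Normal and 0.436, 0.694 and 63.7 CPM in Model. All other libraries were under 1 CPM in these 3 genes. The list of 23 genes of this tissue summed to 1161 CPM in Model 3 and 472 to 976 CPM in the other 5 libraries. Of 18 tested 2 rose and 1, Mep1a, fell, against 4.37% and 1.1% of all tested genes. The bile acid binding protein gene Fabp6 had 1.15, 3.33 and 1.13 in Normal and 28.6, 7.16 and 38.9 CPM in Model (log2 fold change 3.73 ± 0.77, adjusted p = 0.0291, largest 0.132 without Normal 3). It was above Normal in every Model library. Anpep, a brush border peptidase, also rose, with 6.63, 9.32 and 8.0 in Normal and 19.8, 33.7 and 152 CPM in Model (log2 fold change 3.10 ± 0.67, adjusted p = 0.034, largest 0.138 without Normal 3). The rises numbered 0 without Normal 1 or Normal 3 and 1 without Normal 2, Model 1, Atorvastatin 2 or Atorvastatin 3. The Paneth cell defensin Defa24, whose near-identical relatives make its count uncertain, had 0 CPM in Normal 1 to 3 and 0, 0 and 33.9 CPM in Model 1 to 3. The stem cell gene Olfm4, absent from normal mouse colon, was likewise at 0 in Normal and had 0.059, 0.0609 and 20.3 CPM in Model 1 to 3. Only Model 3 was high in Lct, Sis, Apoa1, Defa24 and Olfm4 alike.

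Genes whose level depends on position along the gut also varied between libraries. Of 31 Hox genes tested 1 fell, Hoxb9, with 51.5, 54.6 and 62.7 in Normal and 32.2, 33.1 and 38.4 CPM in Model (log2 fold change -0.70 ± 0.17, adjusted p = 0.0473, largest 0.175 without Normal 3). This single fall was 3.2% of the list, against 1.1% of all tested genes. The falls in this list numbered 0 without Normal 1, Normal 2, Normal 3, Model 1 or Atorvastatin 3 and 2 without Model 2. Hoxb13, a homeobox gene of the hindmost gut, had 25.6, 141 and 107 in Normal and 241, 21.2 and 170.1 CPM in Model. Normal 1 and Model 2 were low and the other 4 libraries high, so the groups overlapped (log2 fold change 0.66 ± 1.61, adjusted p = 0.86). The peptide hormone gene Insl5 was likewise lowest in Normal 1 and Model 2, with 22.7, 67 and 77 in Normal and 113, 12.4 and 121 CPM in Model. The proton pump gene Atp12a had 118, 1393 and 446 in Normal and 2245, 274 and 2342 CPM in Model. Emp1 went the other way, with 2525, 1277 and 1226 in Normal and 166, 1926 and 83.9 CPM in Model. Fat cell RNA, by Adipoq, was highest in Normal 1 and Model 2, with 24.2, 1.05 and 4.56 in Normal and 0.802, 15 and 3.73 CPM in Model.

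**Figure D1:**
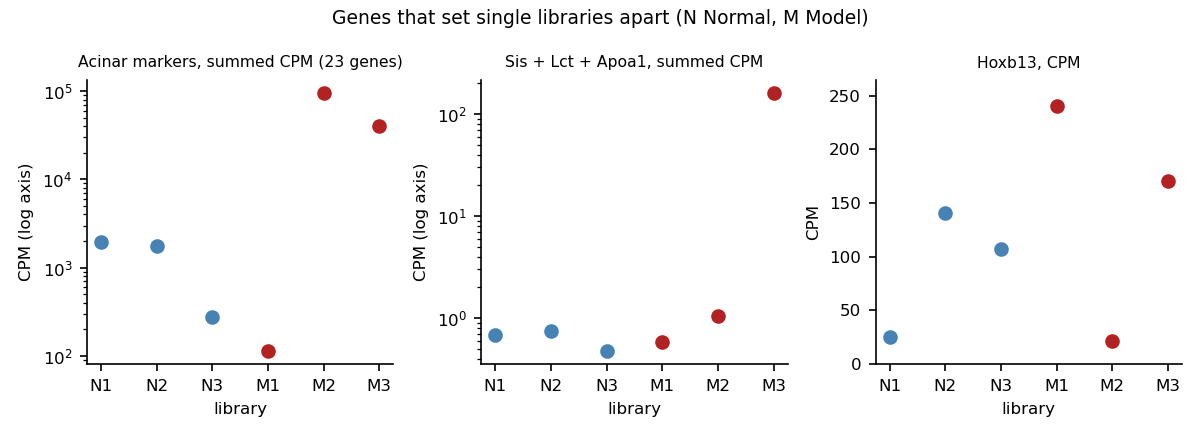
CPM of pancreatic acinar genes (sum of 23), of Sis, Lct and Apoa1 together and of Hoxb13 in Normal 1 to 3 (N1 to N3) and Model 1 to 3 (M1 to M3); the first 2 panels have log axes and the third starts at 0. The acinar sum is highest in Model 2 and 3, the small intestinal sum in Model 3 alone, and Hoxb13 is low in Normal 1 and Model 2.

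In all, 883 genes passed the test, 5.46% of those tested. Of these, 706 (4.37% of those tested) were higher and 177 (1.1%) lower in Model, and the median log2 fold change over all tested genes was -0.0009. Groups that did not overlap were more common: all Model libraries lay above all Normal libraries in 14% of the tested genes and below in 11.7%. Larger changes were mostly rises, since 181 genes rose and 21 fell by at least 2 on the log2 scale. Rises were similarly frequent from 1 to 1000 CPM, with 217 of 4286 genes of 1 to 10 CPM, 375 of 7438 of 10 to 100 CPM and 90 of 2062 of 100 to 1000 CPM higher in Model. They were rarer outside this range, with 22 of 2277 genes under 1 CPM and 2 of 97 over 1000 CPM. On the first principal component of the 6 libraries, which held 38.1% of the variance, Normal lay at -76.1 to -32.3 and Model at 44.7 to 61.8.

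How many genes passed depended on single libraries. With 1 of the 9 libraries left out the count ran from 164 without Normal 3 to 1164 without Model 3, with 320 without Normal 1, 364 without Model 1 and 563 without Atorvastatin 2. Of 229 called genes that are named here or belong to the gene lists below, 60 passed in each of the 9 such fits, 149 passed without Model 2, 212 without Model 3 and 119 without both. For 199 of the 229 the adjusted p was largest without Normal 3. Where a gene below is given with an adjusted p and lost its call in any of these fits, its largest adjusted p follows with the library left out. Where none is given for a called gene with an adjusted p the call held in all 9. Called genes named without an adjusted p may have lost their call, as Eng, Pecam1 and Pgf did without Normal 3. None of the 229 changed direction in these fits. A count of calls above 0 in a list described below is likewise given without a library where its removal moved it by more than 1.5 times. The lists were chosen with earlier results of these data known. A share of calls above that of all tested genes therefore describes a list and does not test it.

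**Figure D2:**
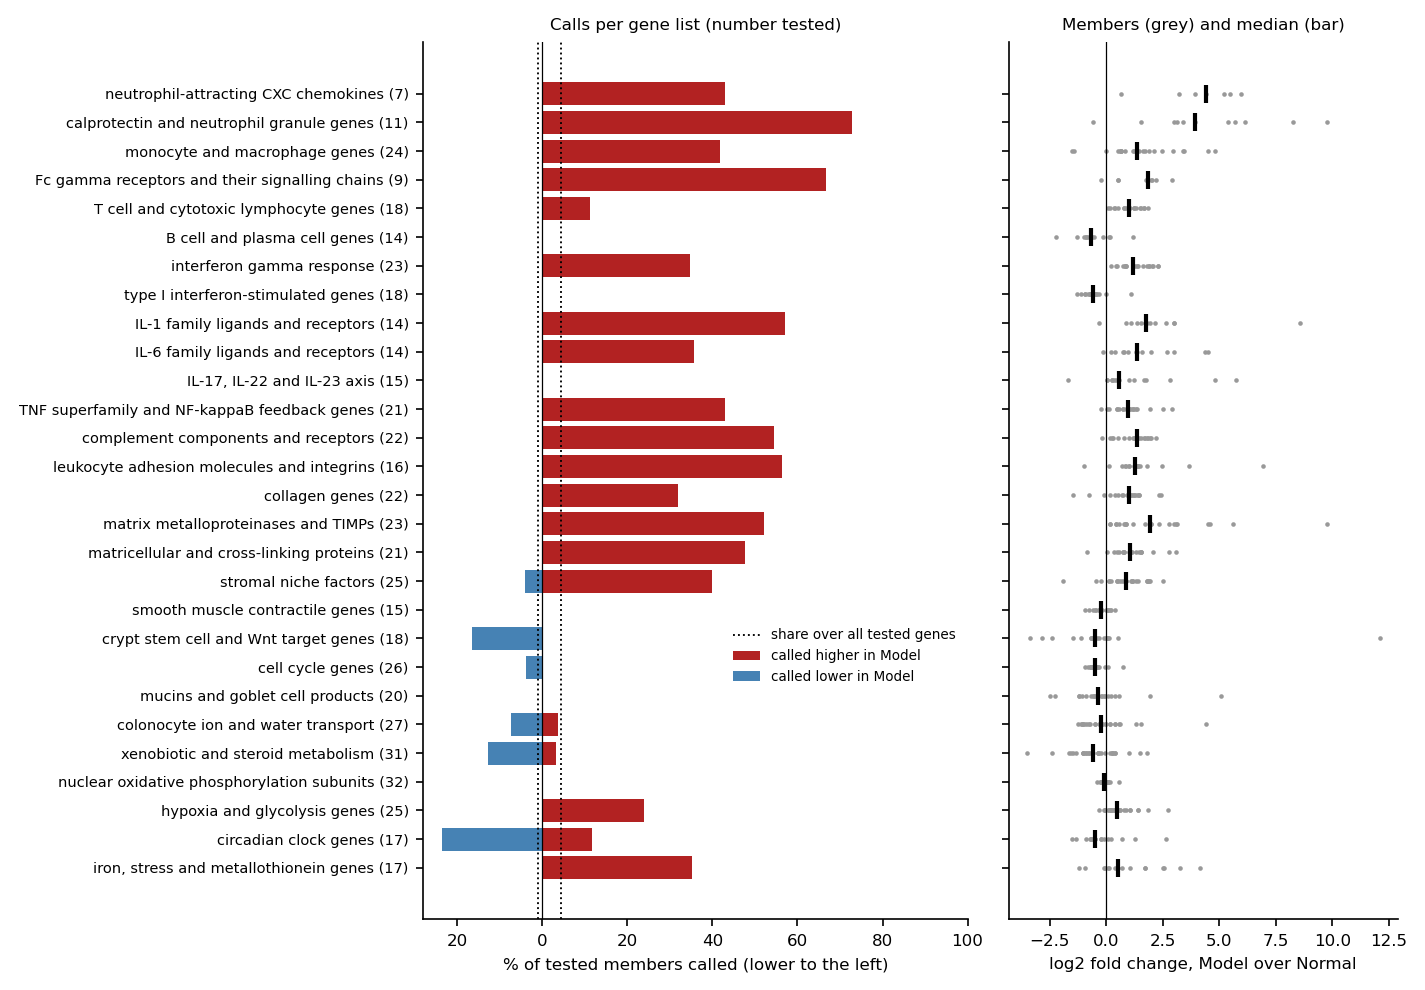
Left, share of the tested members of each gene list called higher (right of 0) or lower (left of 0) in Model, with dotted lines at the shares over all tested genes, 4.37% and 1.1%; right, log2 fold change of each member and the list median. Lists of neutrophil, Fc receptor, IL-1, complement, adhesion and protease genes lie to the right, and the clock list has calls on both sides.

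Genes that attract neutrophils, and genes that neutrophils carry, showed large rises. CXC chemokines bind the receptor Cxcr2 on neutrophils and draw them out of the blood. Cxcl5, which epithelial cells release, had 0.0568, 0.113 and 0.103 in Normal and 7.89, 6.05 and 3.27 CPM in Model (ratio of means 63.2, counting interval 26.8 to 196; adjusted p = 0.00431; at 90907237 to 90909483 on chromosome 5). Cxcl2 had 0.17, 0.175 and 0.0514 in Normal and 6.09, 6.34 and 2.22 CPM in Model (ratio 36.9, interval 18.5 to 86.2; adjusted p = 0.00745). Cxcl1 had 0.114, 0.20 and 0 in Normal and 6.86, 4.69 and 2.53 CPM in Model (ratio 44.8, interval 20.3 to 123; adjusted p = 0.0153, largest 0.0592 without Normal 1). Every Model library was above every Normal library for the 3 chemokines, and Model 3 was the lowest of the Model libraries for each. They were the members that rose among 7 tested of the list of neutrophil-attracting CXC chemokines and receptors, a share of 42.9% against 4.37% of all tested genes (median log2 fold change 4.41, 3.21 to 5.52 with any 1 library left out). By limma-voom 0 of the 7 passed. The list was chosen with earlier results of these data known, so the share of 42.9% is descriptive only. It has 9 members, of which 7 were abundant enough to test. The 3 chemokines were near 0 in Normal and entered the test through libraries in which they were higher. The share and the median over the tested members therefore lean upward. The receptor Cxcr2 itself had 0.639, 0 and 0.0642 in Normal and 3.35, 2.18 and 0.935 CPM in Model and missed the threshold (adjusted p = 0.183).

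Of 19 calprotectin and granule genes 11 were abundant enough to test. Of these 8 rose, 72.7% against 4.37% of all tested genes (median log2 fold change 3.92, 3.62 to 5.35 with any 1 library left out). The median was 4.37 without Model 2 and 3 together. Members near 0 in Normal, such as S100a9 and Mmp8, entered the test through libraries in which they were higher. The share and the median over the tested members therefore lean upward. S100a9, a calprotectin subunit that binds zinc and manganese, had 0.0568, 0 and 0.103 in Normal and 30.5, 14.6 and 4.3 CPM in Model (ratio 310, counting interval 106 to 1500; adjusted p = 0.0124, largest 0.0598 without Normal 3). Ltf, the iron-binding lactoferrin, had 0.397, 1.19 and 0.784 in Normal and 52.7, 7.6 and 38.3 CPM in Model, with Model 2 well below the other Model libraries (log2 fold change 5.37 ± 0.79, adjusted p = 0.00929, largest 0.0547 without Normal 3). Lcn2, which sequesters bacterial siderophores and is also made by epithelium, had 2.5, 1.69 and 3.08 in Normal and 23.3, 39.4 and 13.1 CPM in Model (log2 fold change 3.38 ± 0.58, adjusted p = 0.0147, largest 0.0649 without Normal 3). The collagenase Mmp8 was at 0 in Normal and had 2.38, 0.889 and 0.774 CPM in Model 1 to 3, at least 25.6-fold higher, with 3 read pairs over the 3 Normal libraries taken as the bound. The count of rises was 0 without Normal 3, 4 without Normal 1 and 5 without Normal 2, and limma-voom called 0 of the 11. The azurophil granule genes Mpo, Elane and Ctsg, which are transcribed in marrow precursors, were at or near 0 in all 6 libraries. Cd177, a neutrophil surface gene in textbooks, was abundant in both groups and did not follow the rest, with 315, 327 and 461 in Normal and 233, 139 and 362 CPM in Model.

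Promoters of the chemokines, of the endothelial selectin gene Sele and of Nfkbia, the NF-kappaB inhibitor, are shown because these genes are textbook targets of NF-kappaB. Nfkbia had 53, 55.7 and 46.4 in Normal and 103, 84.4 and 95.8 CPM in Model (log2 fold change 0.87 ± 0.17, adjusted p = 0.0246, largest 0.114 without Normal 3). The sequences are the 250 bases before the start of each gene, 5′ to 3′ on the gene's strand, from RefSeq with build GRCm38.p6, and capitals mark the kappaB consensus, GGGA and TCC with any 3 bases between them, on either strand. Cxcl1 lies at chr5:90890995-90891244 on the plus strand, Cxcl2 at chr5:90903649-90903898 plus, Sele at chr1:164047984-164048233 plus and Nfkbia at chr12:55492648-55492897 minus.
Cxcl1: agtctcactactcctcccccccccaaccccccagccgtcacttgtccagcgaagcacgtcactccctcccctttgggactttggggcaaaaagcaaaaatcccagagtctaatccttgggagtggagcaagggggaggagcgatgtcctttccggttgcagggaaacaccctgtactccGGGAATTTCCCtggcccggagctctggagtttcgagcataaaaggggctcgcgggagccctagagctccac
Cxcl2: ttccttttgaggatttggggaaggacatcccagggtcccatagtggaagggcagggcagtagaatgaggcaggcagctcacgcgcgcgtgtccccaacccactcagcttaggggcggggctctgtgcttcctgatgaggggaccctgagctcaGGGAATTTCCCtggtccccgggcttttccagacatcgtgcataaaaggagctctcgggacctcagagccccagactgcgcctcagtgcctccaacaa
Sele: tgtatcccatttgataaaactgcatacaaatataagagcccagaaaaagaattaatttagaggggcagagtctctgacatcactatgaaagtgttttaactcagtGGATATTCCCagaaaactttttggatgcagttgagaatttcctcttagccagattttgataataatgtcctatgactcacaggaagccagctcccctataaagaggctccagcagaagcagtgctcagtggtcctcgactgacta
Nfkbia: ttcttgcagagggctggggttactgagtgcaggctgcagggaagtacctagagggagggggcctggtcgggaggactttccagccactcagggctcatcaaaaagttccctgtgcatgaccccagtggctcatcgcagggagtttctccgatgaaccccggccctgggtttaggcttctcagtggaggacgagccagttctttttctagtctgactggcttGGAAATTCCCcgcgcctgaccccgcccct
The motif, searched on both strands, lies 71 and 70 bases before the start in Cxcl1 and 97 and 96 bases before it in Cxcl2, as overlapping matches on opposite strands. It lies 145 bases before the start in Sele and 29 bases before it in Nfkbia. Of 14 genes looked up, 10 were in the table and 4 held the motif; Lcn2, Saa3, Tnfaip3, Icam1, S100a8 and S100a9 did not hold these letters in this window. Among all 32851 such windows 3.86% hold it at least once.

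Genes of monocytes and macrophages rose as well. Csf1r, the receptor for the growth factor that keeps macrophages alive, had 38.7, 51.2 and 36.4 in Normal and 114, 104 and 109.5 CPM in Model (log2 fold change 1.38 ± 0.16, adjusted p = 0.00431). Gpnmb, a glycoprotein of lipid-laden and repair macrophages, had 3.7, 5.99 and 4.33 in Normal and 38.6, 43 and 28.3 CPM in Model (log2 fold change 2.97 ± 0.26, adjusted p = 0.00257; at 49013549 to 49047863 on chromosome 6). Clec4e, the receptor Mincle for mycobacterial and fungal glycolipids, had 0.326, 0.15 and 0.0514 in Normal and 6.82, 6.05 and 1.75 CPM in Model (ratio 27.7, counting interval 14.8 to 58.3; adjusted p = 0.0108). All 3 were higher in each Model library than in any Normal library, and Clec4e was lowest in Model 3 within its group. Of 24 genes tested 10 rose (median log2 fold change 1.36, 1.20 to 1.82 with any 1 library left out; 6 without Normal 3), among them Itgam, Cd14, Cd68 and Trem1. Others of these genes did not pass. Mertk had 60.3, 68.1 and 55.2 in Normal and 56.3, 52.5 and 71.3 CPM in Model. Cx3cr1 had 4.53, 10.8 and 8.12 in Normal and 6.51, 11.1 and 19.9 CPM in Model. Retnla had 9.68, 1.98 and 5.24 in Normal and 0.519, 2.45 and 2.91 CPM in Model, and all 3 overlapped between groups.

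Receptors for IgG rose together with their signalling chains. Fcer1g, the shared gamma chain, had 4.29, 6.01 and 4.56 in Normal and 26.3, 20.9 and 20.3 CPM in Model (log2 fold change 2.18 ± 0.18, adjusted p = 0.00257; at 171057141 to 171061934 on chromosome 1). Fcgr4, an activating receptor for IgG2a and IgG2b, had 3.12, 8.04 and 2.75 in Normal and 37.7, 34.2 and 31 CPM in Model (log2 fold change 2.89 ± 0.38, adjusted p = 0.00604). The inhibitory receptor gene Fcgr2b had 18.6, 27.1 and 11.6 in Normal and 66.7, 67.5 and 61.8 CPM in Model (log2 fold change 1.78 ± 0.27, adjusted p = 0.0102). The Model libraries differed little from one another in these genes and lay apart from Normal, in which Normal 2 was the highest. Fcgr1, Fcgr3 and Tyrobp also rose, 6 of 9 in all (median log2 fold change 1.83, 1.65 to 2.14 with any 1 library left out), and 5 did so without Model 2 and 3 together. The kinase gene Syk, which acts below the receptors, did not pass, with 338, 265 and 235 in Normal and 267, 232 and 212 CPM in Model.

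Lymphocyte genes were less uniform. Il2ra, the high-affinity IL-2 receptor chain of activated and regulatory T cells, had 2.13, 1.05 and 1.07 in Normal and 4.99, 4.89 and 3.8 CPM in Model (log2 fold change 1.69 ± 0.34, adjusted p = 0.0264, largest 0.113 without Normal 3). Ctla4, an inhibitory receptor of the same cells, had 2.46, 3.97 and 1.88 in Normal and 9.9, 8.47 and 7.67 CPM in Model (log2 fold change 1.65 ± 0.37, adjusted p = 0.0389, largest 0.148 without Normal 3). These were the only rises among 18 T cell and cytotoxic genes (median log2 fold change 0.99, 0.88 to 1.29 with any 1 library left out; 0 without Normal 3, Model 1 or Model 2 and 1 without Normal 2 or Atorvastatin 1), although Normal 3 was low in many of them. Granzyme B (Gzmb) had 19.6, 24.8 and 5.99 in Normal and 55.2, 50.8 and 39.1 CPM in Model. Cd3e had 8.23, 5.5 and 2.6 in Normal and 13.1, 13.2 and 12.4 CPM in Model. Foxp3, which defines regulatory T cells, had 1.92, 1.3 and 0.912 in Normal and 2.16, 1.16 and 1.1 CPM in Model. Of 14 B cell and plasma cell genes 0 passed (1 higher at an unadjusted p under 0.05, 1 by DESeq2 and 0 by limma-voom), and their median moved from -1.83 to 0.35 with the library left out. The follicle chemokine Cxcl13, which draws B cells, nevertheless rose, with 5.69, 6.08 and 3.73 in Normal and 32.5, 12.9 and 24.6 CPM in Model (log2 fold change 2.17 ± 0.48, adjusted p = 0.0352, largest 0.148 without Normal 3).

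Chemokines of the CC family recruit monocytes, eosinophils and T cells. Ccl2, the main ligand of Ccr2 on blood monocytes, had 0.724, 1.3 and 0.694 in Normal and 7.43, 6.43 and 5.43 CPM in Model (log2 fold change 2.82 ± 0.34, adjusted p = 0.00445). Ccr1, a receptor of monocytes and neutrophils, had 4.54, 5.83 and 4.01 in Normal and 16.6, 18.9 and 16.5 CPM in Model (log2 fold change 1.85 ± 0.18, adjusted p = 0.00287). The eosinophil attractant Ccl11 had 5.19, 5.59 and 4.12 in Normal and 13.3, 16.4 and 14.7 CPM in Model (log2 fold change 1.57 ± 0.29, adjusted p = 0.0196, largest 0.0996 without Normal 3). In each case the Model libraries were close together and clear of Normal. With Ccl8 and Ccl21a they were among 6 rises in 23 tested (median log2 fold change 1.42, 1.03 to 1.61 with any 1 library left out; 2 without Normal 3), and 2 were called without Model 2 and 3 together. Ccl20, the epithelial ligand of Ccr6, was high in Model 1 and 3 alone, with 0.724, 1.65 and 1.62 in Normal and 9.77, 0.986 and 8.78 CPM in Model, and missed the threshold. The homing pair of the small intestine, Ccl25 and Ccr9, also missed it.

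Cytokine families differed in how many members rose. In the IL-1 family 8 of 14 rose, ligands, receptors and antagonists alike (median log2 fold change 1.78, 1.56 to 2.05 with any 1 library left out; 0 without Normal 3, 1 without Normal 1, 2 without Model 1, 3 without Model 2 and 5 without Normal 2 or Atorvastatin 3). Il1b had 3.39, 11 and 2.54 in Normal and 50.8, 53.5 and 30.8 CPM in Model (log2 fold change 2.99 ± 0.58, adjusted p = 0.0234, largest 0.0886 without Normal 3). The decoy receptor Il1r2 had 0.568, 1.3 and 0.527 in Normal and 7.41, 6.94 and 4.63 CPM in Model (log2 fold change 2.98 ± 0.47, adjusted p = 0.0115, largest 0.0596 without Normal 3). The receptor antagonist Il1rn had 12.7, 29 and 15.9 in Normal and 124, 60.1 and 39.2 CPM in Model (log2 fold change 1.95 ± 0.43, adjusted p = 0.0353, largest 0.153 without Normal 3). Groups did not overlap for the ligand or for either inhibitor. Il18bp, which neutralises IL-18, had 16.7, 18.8 and 9.74 in Normal and 62.3, 71.2 and 69.5 CPM in Model (log2 fold change 2.17 ± 0.38, adjusted p = 0.0151, largest 0.068 without Normal 3). Il18 itself had 11, 20.5 and 10.3 in Normal and 33.7, 14.7 and 41.5 CPM in Model and overlapped between groups.

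In the IL-6 family the receptors Osmr and Lifr, the ligand Lif and the signalling end rose. Osmr, the oncostatin M receptor of stromal cells, had 7.92, 15.3 and 9.08 in Normal and 40.6, 46.6 and 40.8 CPM in Model (log2 fold change 1.98 ± 0.23, adjusted p = 0.00431). Socs3, the feedback inhibitor induced by STAT3, had 22.9, 17.6 and 9.1 in Normal and 165, 126 and 103 CPM in Model (log2 fold change 2.99 ± 0.34, adjusted p = 0.00431; at 117856905 to 117860012 on chromosome 11). Stat3 had 141, 136 and 118 in Normal and 279, 266 and 219 CPM in Model (log2 fold change 0.95 ± 0.13, adjusted p = 0.00706). All 3 were well apart between the groups. Lif, a ligand of the receptor Lifr, had 4.49, 7.02 and 7.13 in Normal and 14.2, 20.2 and 13.9 CPM in Model (log2 fold change 1.37 ± 0.23, adjusted p = 0.0145, largest 0.0547 without Normal 3). It was higher in each Model library than in any Normal library. Il6 had 0.128, 0.10 and 0 in Normal and 1.0, 2.7 and 1.1 CPM in Model. Osm had 0.681, 0.188 and 0.0514 in Normal and 1.9, 2.95 and 1.15 CPM in Model. Il11 had 0.525, 0.125 and 0.373 in Normal and 12.6, 9.87 and 0.731 CPM in Model. The groups did not overlap in the ligands Il6, Osm and Il11, of which none passed. In all 5 of 14 rose (median log2 fold change 1.34, 0.92 to 1.48 with any 1 library left out; 3 without Normal 3; 3 without Model 2 and 3 together).

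By contrast 0 of 15 genes of the IL-17, IL-22 and IL-23 axis passed edgeR's test (6 higher at an unadjusted p under 0.05, 3 by DESeq2 and 0 by limma-voom). Il22, a cytokine that acts on epithelium, had 0.128, 0 and 0 in Normal and 0.366, 0.475 and 2.75 CPM in Model. It was highest in Model 3, the library with small intestinal genes, and that RNA's part was not tested. Il17a had 0, 0 and 0 in Normal and 0, 0.243 and 0 CPM in Model. A difference in calls between families was not tested. Among 21 TNF superfamily and NF-kappaB feedback genes 9 rose (median log2 fold change 0.95, 0.78 to 1.07 with any 1 library left out; 3 without Normal 3 and 4 without Normal 1 or Model 1). Both TNF receptors were among them. Tnfrsf1b had 77.8, 70.1 and 64.3 in Normal and 160.1, 152 and 166 CPM in Model (log2 fold change 1.17 ± 0.11, adjusted p = 0.00287). Tnfrsf1a had 82, 75.8 and 68.6 in Normal and 159.8, 174 and 121 CPM in Model (log2 fold change 1.01 ± 0.14, adjusted p = 0.00817). The groups were well apart in both. Tnf itself had 2.29, 6.39 and 0.899 in Normal and 20.3, 19.8 and 14.2 CPM in Model (log2 fold change 2.50 ± 0.57, adjusted p = 0.0401, largest 0.12 without Normal 1). The deubiquitinase gene Tnfaip3, a brake on NF-kappaB, had 111, 70.4 and 88.5 in Normal and 231, 179 and 223 CPM in Model (log2 fold change 1.23 ± 0.25, adjusted p = 0.0278, largest 0.122 without Normal 3).

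**Figure D3:**
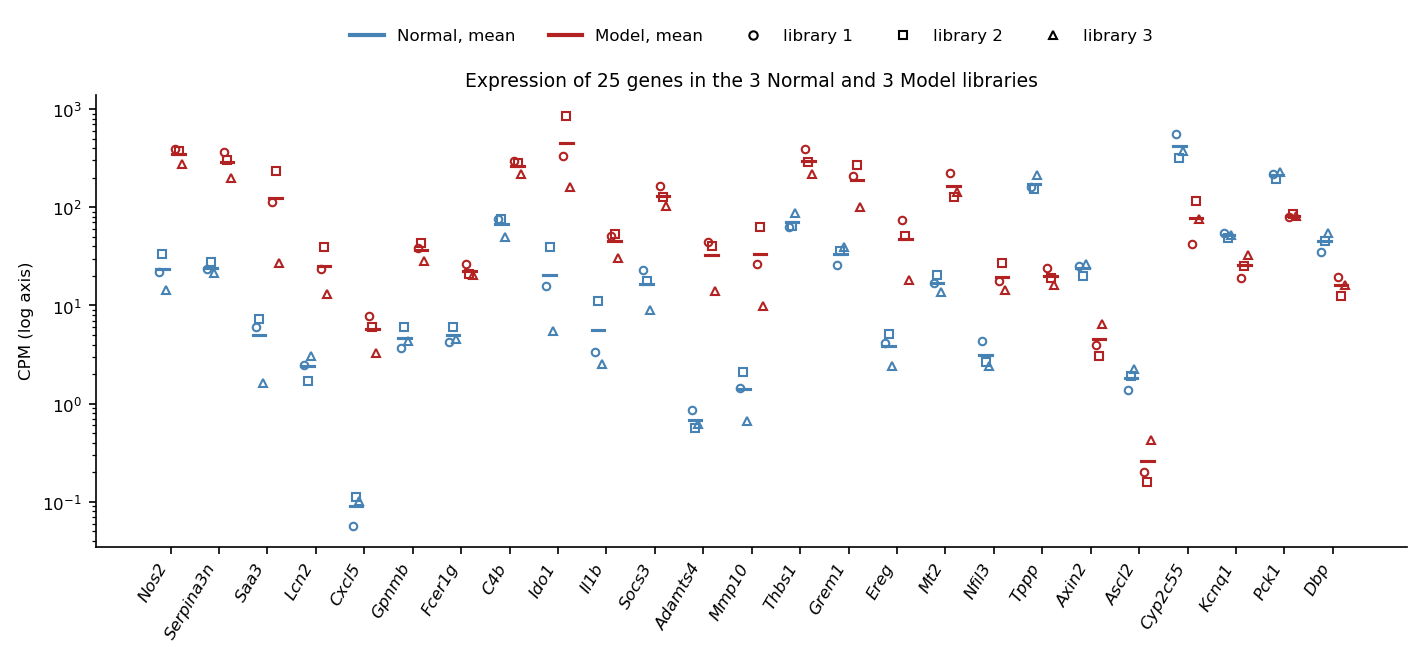
CPM on a log axis of 25 genes that passed the test in Normal 1 to 3 (blue) and Model 1 to 3 (red), with circles, squares and triangles for libraries 1, 2 and 3 and bars at the group means. The groups do not overlap in any of the 25 genes, and Model 3 (triangle) is often the Model library nearest to Normal among the rises.

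Microbial sensors moved modestly. Tlr13, a sensor of bacterial ribosomal RNA, had 1.21, 1.69 and 1.23 in Normal and 5.64, 5.33 and 4.81 CPM in Model (log2 fold change 1.93 ± 0.24, adjusted p = 0.00488). Tlr2, which binds lipoproteins, had 16.8, 19.7 and 16.1 in Normal and 37, 36.9 and 41.5 CPM in Model (log2 fold change 1.13 ± 0.18, adjusted p = 0.0124, largest 0.0649 without Normal 3). Nlrp3, an inflammasome sensor, had 0.568, 1.5 and 0.45 in Normal and 6.39, 8.53 and 3.01 CPM in Model (log2 fold change 2.83 ± 0.61, adjusted p = 0.033, largest 0.135 without Normal 3). Groups were apart for the 3 sensors, and Normal 2 was highest within Normal. Of 23 tested 6 rose and 0 fell (median log2 fold change 0.51, 0.40 to 0.57 with any 1 library left out; 1 without Normal 1 or Normal 3, 2 without Model 1, Model 2 or Atorvastatin 2 and 3 without Normal 2 or Atorvastatin 3). Casp1, the protease of the inflammasome, had 96.6, 124 and 70.5 in Normal and 92.3, 105 and 122 CPM in Model. The flagellin sensor Nlrc4 had 93.3, 80.9 and 70.9 in Normal and 79.9, 79.1 and 96.1 CPM in Model. The groups overlapped in both genes.

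Nos2, the inducible nitric oxide synthase, had 22.1, 33.6 and 14.5 in Normal and 393, 371 and 275 CPM in Model (log2 fold change 3.89 ± 0.33, adjusted p = 0.00257; at 78811613 to 78851080 on chromosome 11). Genes of the phagocyte oxidase, which makes superoxide, rose with it. Cyba had 28.1, 32.4 and 25.9 in Normal and 72.7, 68.6 and 57.4 CPM in Model (log2 fold change 1.20 ± 0.15, adjusted p = 0.0047). Ncf1 had 17.8, 14.3 and 9.25 in Normal and 31, 29.8 and 24.3 CPM in Model (log2 fold change 1.04 ± 0.24, adjusted p = 0.042, largest 0.124 without Model 1). The epithelial maturation factor Duoxa2 had 123, 126 and 89 in Normal and 189, 190.2 and 225 CPM in Model (log2 fold change 0.84 ± 0.18, adjusted p = 0.0353, largest 0.135 without Normal 3). Each Model library exceeded each Normal library in these genes. Noxo1 also rose, whereas its partner Noxa1 had 54.6, 50.8 and 73.6 in Normal and 17.2, 36.3 and 37.1 CPM in Model. Nox1, the catalytic subunit of colonocytes, had 19.2, 31.1 and 31.8 in Normal and 4.98, 5.1 and 34.6 CPM in Model. Neither gene passed. In all 6 of 16 rose (median log2 fold change 0.83, 0.67 to 0.95 with any 1 library left out; 2 without Normal 3 or Model 1 and 3 without Normal 1, Normal 2, Model 2, Atorvastatin 2 or Atorvastatin 3).

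Interferon-responsive genes split by class. Among 23 genes induced mainly by interferon gamma 8 rose and all 23 had a positive log2 fold change (median log2 fold change 1.20, 0.98 to 1.44 with any 1 library left out). The guanylate binding protein gene Gbp5, which attacks vacuoles of intracellular bacteria and has near-identical relatives, had 17.7, 23.9 and 11.7 in Normal and 106, 103 and 54.4 CPM in Model (log2 fold change 2.30 ± 0.33, adjusted p = 0.00836). Cxcl9, which draws T cells through Cxcr3, had 14.7, 25.2 and 9.11 in Normal and 66.5, 68 and 47 CPM in Model (log2 fold change 1.89 ± 0.34, adjusted p = 0.0175, largest 0.0677 without Normal 1). Ciita, the master regulator of MHC class II, had 54.3, 43.4 and 20.6 in Normal and 110.3, 179 and 129 CPM in Model (log2 fold change 1.82 ± 0.40, adjusted p = 0.0353, largest 0.101 without Normal 3). The groups did not overlap in these 3 genes. The count of rises was fragile (1 without Normal 1, Normal 3 or Model 1, 2 without Model 2, 3 without Normal 2, 5 without Atorvastatin 2 and 13 without Atorvastatin 1; 1 without Model 2 and 3 together). Ifng transcripts were scarce, at 0.525, 1.05 and 0.0514 in Normal and 1.92, 1.84 and 1.21 CPM in Model.

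Of 18 genes driven mainly by type I interferon 0 passed (2 lower at an unadjusted p under 0.05, 2 lower by DESeq2 and 0 by limma-voom), with a median log2 fold change -0.60, -0.76 to -0.49 with any 1 library left out. Ifit1, which binds uncapped RNA, had 249.6, 325 and 147 in Normal and 119.9, 94 and 83.8 CPM in Model (log2 fold change -1.28 ± 0.46, adjusted p = 0.153). Oas2, a sensor of double-stranded RNA, had 336, 366 and 260.5 in Normal and 133, 118 and 188 CPM in Model (log2 fold change -1.13 ± 0.43, adjusted p = 0.173). In both genes every Model library was below every Normal library, and this held for 11 of the 18, against 11.7% of all tested genes. Ifit2 went the other way, with 219, 393 and 129.7 in Normal and 529, 660.3 and 414 CPM in Model. Irf1 of the first class rose, with a log2 fold change of 0.76 ± 0.17 (largest adjusted p 0.159 without Normal 3). A difference between the 2 classes was not tested.

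**Figure D4:**
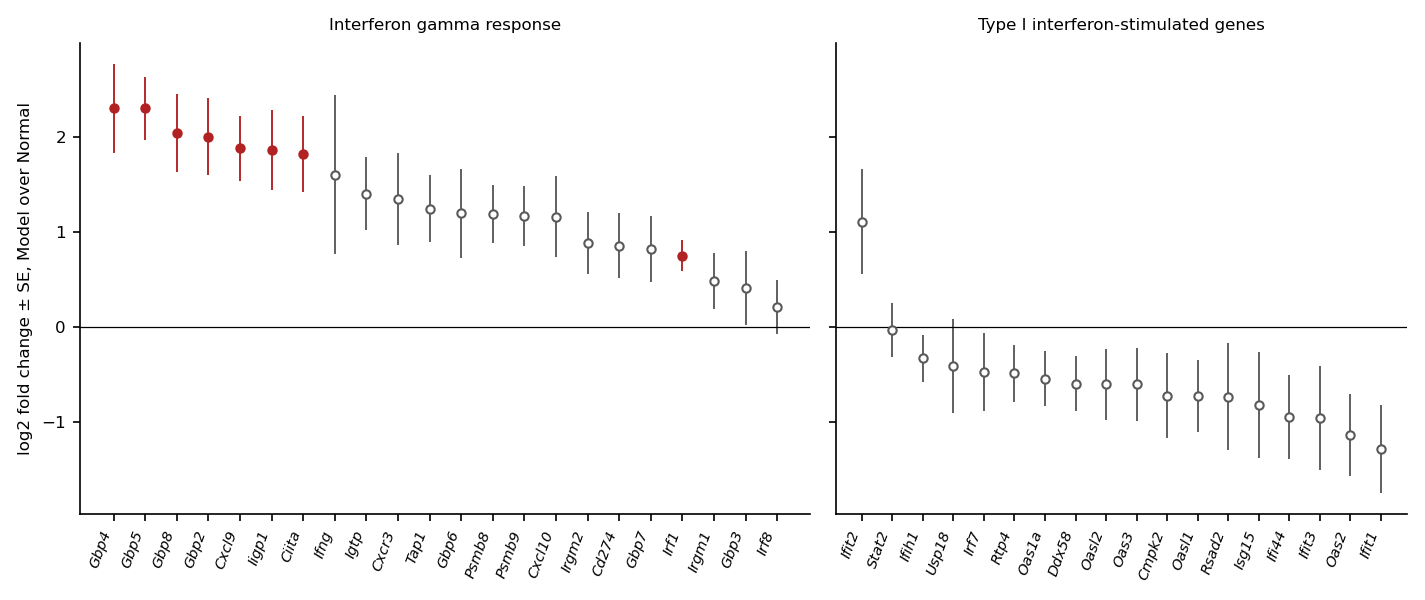
Log2 fold change ± SE, Model over Normal, of the named interferon gamma response genes (left) and of 18 type I interferon-stimulated genes (right); filled red points passed the test. All genes drawn on the left lie above 0 and 8 passed, while on the right Ifit2 alone lies above 0 and none passed.

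Complement genes rose at several steps of the cascade. Of 22 tested 12 rose and 0 fell (median log2 fold change 1.35, 1.22 to 1.5 with any 1 library left out). The starting proteases were represented by C1ra, with 24, 36.4 and 20.8 in Normal and 89.7, 87.1 and 86.4 CPM in Model (log2 fold change 1.70 ± 0.20, adjusted p = 0.00431). C1qb, part of the recognition subunit, had 33.9, 56.1 and 32.9 in Normal and 117, 113 and 105 CPM in Model (log2 fold change 1.44 ± 0.23, adjusted p = 0.0114, largest 0.0559 without Normal 3). Both were even within Model and above every Normal library. C4b, which follows them, had 76.6, 76.1 and 49.8 in Normal and 299, 282 and 217 CPM in Model (log2 fold change 1.98 ± 0.19, adjusted p = 0.00287; at 34947354 to 34962856 on chromosome 17). The inhibitor of the first step, Serping1, had 55.1, 70.2 and 53.7 in Normal and 175, 197 and 147 CPM in Model (log2 fold change 1.54 ± 0.16, adjusted p = 0.00308). The groups did not overlap in any of the 4 genes. C3, the central component, rose with Normal 1 above the other Normal libraries, at 345, 130.3 and 152 in Normal and 635, 705 and 649 CPM in Model (log2 fold change 1.66 ± 0.36, adjusted p = 0.0342, largest 0.145 without Normal 3). The anaphylatoxin receptor C5ar1 rose, while Cfb of the alternative pathway had 184, 269 and 156 in Normal and 428, 265 and 366 CPM in Model and missed the threshold. Rises numbered 3 without Normal 3 and 6 without Normal 1, and 5 without Model 2 and 3 together.

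Adhesion molecules of the vessel wall and their leukocyte partners rose in 9 of 16 cases (median log2 fold change 1.29, 1.03 to 1.53 with any 1 library left out; 0 without Normal 3 or Model 1, 1 without Normal 1 and 3 without Normal 2). P-selectin (Selp), which slows leukocytes on activated endothelium, had 0.795, 0.802 and 1.45 in Normal and 21.8, 12.5 and 4.21 CPM in Model (log2 fold change 3.66 ± 0.70, adjusted p = 0.0218, largest 0.0796 without Normal 1). E-selectin (Sele) had 0, 0.0501 and 0 in Normal and 4.33, 2.09 and 0.424 CPM in Model, with 1 read pair in Normal (ratio 137, counting interval 24.1 to 5430; adjusted p = 0.0247, largest 0.104 without Normal 3). Madcam1, the gut homing receptor, had 3.07, 1.42 and 2.11 in Normal and 9.9, 6.38 and 6.53 CPM in Model (log2 fold change 1.79 ± 0.42, adjusted p = 0.0432, largest 0.167 without Normal 3). Both selectins were highest in Model 1 and lowest, though above Normal, in Model 3. Of 22 general vessel genes 3 rose, Eng, Pecam1 and Pgf (median log2 fold change 0.72, 0.61 to 0.83 with any 1 library left out; 0 without Normal 3, 1 without Normal 2, Model 1, Atorvastatin 2 or Atorvastatin 3 and 8 without Model 3). The endothelial gene Vwf had 27.4, 22.3 and 32 in Normal and 71.5, 66.4 and 27.8 CPM in Model, so that Model 3 lay with Normal.

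Matrix genes rose as well. Of 22 collagen genes 7 rose (median log2 fold change 0.99, 0.79 to 1.25 with any 1 library left out; 0 without Normal 1 or Normal 3, 1 without Model 1, 2 without Normal 2, 3 without Model 2, Atorvastatin 2 or Atorvastatin 3, 4 without Atorvastatin 1 and 13 without Model 3; 10 without Model 2 and 3 together). The chain of fibrillar collagen Col1a1 had 54.3, 55.9 and 56 in Normal and 128, 215 and 102 CPM in Model (log2 fold change 1.42 ± 0.28, adjusted p = 0.0252, largest 0.106 without Normal 3). The basement membrane collagen Col18a1 had 17, 21.6 and 18.5 in Normal and 119, 129 and 37.3 CPM in Model (log2 fold change 2.32 ± 0.41, adjusted p = 0.0167, largest 0.0857 without Normal 3). Col4a1 had 94.5, 90.0 and 102 in Normal and 305, 365 and 119 CPM in Model (log2 fold change 1.46 ± 0.34, adjusted p = 0.043, largest 0.148 without Normal 3). Model 3 was nearest to Normal in all of them. Thbs1, a matricellular activator of latent TGF-beta, had 63.7, 64.3 and 86.8 in Normal and 389, 286 and 218 CPM in Model (log2 fold change 2.06 ± 0.29, adjusted p = 0.00824; at 117942357 to 117957614 on chromosome 2). Fn1, fibronectin, had 253, 218 and 259.9 in Normal and 710.3, 401 and 379.7 CPM in Model (log2 fold change 1.03 ± 0.24, adjusted p = 0.0422, largest 0.142 without Normal 3). With the cross-linking enzymes Lox, Loxl1 and Loxl2 they belonged to 10 rises among 21 such genes (median log2 fold change 1.04, 0.95 to 1.15 with any 1 library left out; 1 without Normal 1 or Normal 3, 4 without Normal 2 and 5 without Model 1 or Model 2).

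Proteases that cut matrix rose in 12 of 23 cases (median log2 fold change 1.94, 1.68 to 2.15 with any 1 library left out; 3 without Normal 3, 4 without Normal 1 and 7 without Normal 2; 10 without Model 2 and 3 together). The aggrecanase Adamts4 had 0.866, 0.564 and 0.617 in Normal and 44, 40.5 and 14.1 CPM in Model (log2 fold change 5.59 ± 0.50, adjusted p = 0.00269; at 171077990 to 171088206 on chromosome 1). Stromelysin 2 (Mmp10) had 1.43, 2.09 and 0.668 in Normal and 26.4, 63.1 and 9.96 CPM in Model (log2 fold change 4.57 ± 0.83, adjusted p = 0.0176, largest 0.0893 without Normal 3). Both this gene and Adamts4 were lowest in Model 3 within their group. Stromelysin 1 (Mmp3) had 1.42, 1.28 and 0.771 in Normal and 17.6, 42.4 and 18.1 CPM in Model (log2 fold change 4.49 ± 0.79, adjusted p = 0.0158, largest 0.088 without Normal 3). The gelatinase Mmp2 had 17.7, 21.5 and 18.6 in Normal and 69.9, 101 and 51.5 CPM in Model (log2 fold change 1.94 ± 0.26, adjusted p = 0.00609). The groups were separate in all 4 genes. Their inhibitor Timp1 rose too, with 0.695, 1.2 and 1.14 in Normal and 12.8, 8.51 and 5.04 CPM in Model (log2 fold change 3.11 ± 0.58, adjusted p = 0.0203, largest 0.0911 without Normal 3). Among genes of plasminogen activation, the activator gene Plat had 6.84, 5.78 and 5.69 in Normal and 35.7, 16.5 and 26.1 CPM in Model (log2 fold change 2.10 ± 0.27, adjusted p = 0.00532). In that list 6 of 14 rose (median log2 fold change 1.23, 1.01 to 1.42 with any 1 library left out; 1 without Normal 3, 2 without Normal 2 or Model 1 and 3 without Normal 1).

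Signals from the stroma to the crypt rose on the side of both agonists and antagonists. Grem1, a secreted BMP antagonist of the crypt base, had 25.9, 35.9 and 39.3 in Normal and 206, 267 and 99.5 CPM in Model (log2 fold change 2.50 ± 0.41, adjusted p = 0.0136, largest 0.0612 without Normal 3; at 113576509 to 113588991 on chromosome 2). The BMP ligand Bmp4 had 7.04, 11.1 and 10.5 in Normal and 21, 27.3 and 14.9 CPM in Model (log2 fold change 1.15 ± 0.25, adjusted p = 0.033, largest 0.109 without Normal 3). In both, Model 3 was the Model library nearest to Normal. Rspo3, which amplifies Wnt signals, had 1.53, 2.1 and 1.64 in Normal and 7.71, 8.29 and 3.92 CPM in Model (log2 fold change 1.91 ± 0.34, adjusted p = 0.0171, largest 0.0894 without Normal 3). The Wnt antagonist Sfrp1 had 17.7, 17.9 and 14.9 in Normal and 60.9, 80.6 and 43.5 CPM in Model (log2 fold change 1.87 ± 0.25, adjusted p = 0.00609). The groups were separate in each case. Gli1, a target of Hedgehog signalling in stromal cells, was the one factor of the list to fall, with 4.16, 5.99 and 4.41 in Normal and 0.979, 1.01 and 1.86 CPM in Model (log2 fold change -1.92 ± 0.33, adjusted p = 0.0146, largest 0.0564 without Model 1). In all 10 of 25 rose and 1 fell (median log2 fold change 0.87, 0.83 to 1.06 with any 1 library left out; rises 1 without Normal 3, 2 without Normal 1, 4 without Model 1, 5 without Normal 2, Atorvastatin 2 or Atorvastatin 3 and 6 without Model 2; the fall 0 without Normal 3 or Model 1; rises 6 without Model 2 and 3 together).

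Of the EGF family, 2 of 14 members rose (1 without Normal 1, Normal 2, Normal 3, Model 1 or Model 2). The receptor ligand Ereg had 4.12, 5.15 and 2.4 in Normal and 74, 50.8 and 18.2 CPM in Model (log2 fold change 3.61 ± 0.73, adjusted p = 0.0269, largest 0.123 without Normal 3; at 91222481 to 91241505 on chromosome 5). Nrg1, a stromal ligand of Erbb3, had 5.93, 7.52 and 5.43 in Normal and 41.9, 40.2 and 19.1 CPM in Model (log2 fold change 2.42 ± 0.32, adjusted p = 0.00613). Both were lowest in Model 3 within their group and above every Normal library. The receptors Egfr, Erbb2 and Erbb3 did not pass, at log2 fold changes of 0.32 ± 0.13, 0.05 ± 0.24 and -0.03 ± 0.21. Of 18 TGF-beta and activin genes 4 rose (median log2 fold change 0.75, 0.66 to 0.76 with any 1 library left out; 2 without Normal 3), led by Tgfbi (58.6, 63.8 and 53.5 in Normal and 218, 196 and 125 CPM in Model; log2 fold change 1.61 ± 0.20, adjusted p = 0.00502) and the activin subunit Inhbb (0.27, 0.489 and 0.565 in Normal and 5.85, 10.9 and 2.28 CPM in Model; log2 fold change 3.84 ± 0.58, adjusted p = 0.0102). Contractile genes of the muscle layer did not rise: 0 of 15 passed (1 lower at an unadjusted p under 0.05, 0 by DESeq2 and limma-voom; median log2 fold change -0.22, -0.33 to 0.00 with any 1 library left out).

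Within the epithelium few genes passed, and falls outnumbered rises in the crypt. Axin2, a direct target of Wnt signalling, had 25.1, 19.8 and 26.6 in Normal and 3.97, 3.06 and 6.55 CPM in Model (log2 fold change -2.40 ± 0.31, adjusted p = 0.00574; at 108811175 to 108841609 on chromosome 11). Ascl2, a transcription factor of crypt stem cells, had 1.39, 1.89 and 2.25 in Normal and 0.201, 0.158 and 0.424 CPM in Model (log2 fold change -2.82 ± 0.60, adjusted p = 0.0309, largest 0.114 without Normal 3). Ephb3, which positions cells in the crypt, had 19.9, 21.8 and 34.1 in Normal and 7.35, 9.64 and 10.2 CPM in Model (log2 fold change -1.48 ± 0.25, adjusted p = 0.0144, largest 0.0547 without Normal 3). Each was lower in every Model library than in any Normal library. These 3 were the falls among 18 crypt stem cell and Wnt target genes (median log2 fold change -0.48, -0.49 to -0.30 with any 1 library left out; 1 without Normal 3 or Model 1), against 1.1% of all tested genes. Lgr5, the marker of these cells, had 2.38, 4.21 and 4.46 in Normal and 0, 0.438 and 0.643 CPM in Model and missed the threshold (adjusted p = 0.101). Windows of 250 bases before the starts of Axin2, Ascl2 and Ephb3 did not hold CTTTGAT on either strand, which 3.21% of all windows do. With so rare a motif its absence from these windows decides nothing, and sequence outside them was not searched.

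Of 26 cell cycle genes 1 fell, Plk1, with 50.8, 44.4 and 58.8 in Normal and 32.9, 35.8 and 28.1 CPM in Model (log2 fold change -0.67 ± 0.14, adjusted p = 0.0299, largest 0.121 without Normal 3; median log2 fold change -0.51, -0.74 to -0.39 with any 1 library left out). This single fall was 3.8% of the list, against 1.1% of all tested genes. The falls numbered 0 without Normal 1, Normal 3, Model 1 or Atorvastatin 2, 2 without Atorvastatin 1 and 7 without Model 3. Mki67 had 261, 230.0 and 243 in Normal and 120.5, 114 and 230.2 CPM in Model, in which Model 3 lay with Normal.

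Few transport genes of the colonocyte passed. The potassium channel genes Kcnq1 and Kcnn4, which set the driving force for chloride secretion, had 54.5, 48.9 and 51.9 in Normal and 18.9, 25.4 and 32.8 CPM in Model (log2 fold change -1.01 ± 0.21, adjusted p = 0.028, largest 0.0968 without Normal 3) and 23.6, 29.4 and 36.6 in Normal and 13.1, 17.5 and 15.9 CPM in Model (log2 fold change -0.95 ± 0.19, adjusted p = 0.0255, largest 0.094 without Normal 3). Both were lower in every Model library. The chloride channel Cftr had 103, 132 and 127 in Normal and 30.2, 52.2 and 84.4 CPM in Model. The cotransporter Slc12a2 had 199, 269 and 307 in Normal and 85.2, 98.1 and 181 CPM in Model. The groups did not overlap in either gene, and neither passed. Clca4b rose, with 37.4, 174 and 9.1 in Normal and 2063, 399.9 and 2215 CPM in Model (log2 fold change 4.41 ± 1.05, adjusted p = 0.045, largest 0.134 without Normal 1), Model 2 being the lowest in its group. Aqp8, the water channel of the surface, overlapped widely, with 809, 1466 and 753 in Normal and 919, 543 and 1155 CPM in Model. In all 2 of 27 fell and 1 rose (median log2 fold change -0.21, -0.34 to 0.02 with any 1 library left out). The falls were 7.4% of the list against 1.1% of all tested genes, and the rise 3.7% against 4.37%. The falls numbered 0 without Normal 2, Normal 3 or Model 1, 1 without Normal 1 and 4 without Model 3. The rise numbered 0 without Normal 1, Normal 3, Model 1, Model 3, Atorvastatin 1, Atorvastatin 2 or Atorvastatin 3.

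Of 20 goblet cell genes 0 passed (6 lower and 2 higher at an unadjusted p under 0.05, 4 lower by DESeq2, 0 by limma-voom; median log2 fold change -0.36, -0.62 to -0.28 with any 1 library left out). The secreted metalloprotease gene Clca1 had 32272, 9377 and 35183 in Normal and 3439.6, 3255 and 7219 CPM in Model (adjusted p = 0.059). The main mucin Muc2 had 26320.0, 14100.0 and 25205 in Normal and 9679, 20931 and 13211 CPM in Model. Normal 2 was far below the other Normal libraries for Clca1. The same library was low for other secreted defence genes. Ang4, an antimicrobial ribonuclease with near-identical relatives, had 2538, 155 and 2072 in Normal and 2.54, 17.2 and 21.1 CPM in Model (log2 fold change -6.87 ± 1.17, adjusted p = 0.0145, largest 0.0547 without Normal 3; at 52001335 to 52011047 on chromosome 14). The lectin Itln1 had 90.9, 2.02 and 74.8 in Normal and 0.519, 0.487 and 14.7 CPM in Model. For Ang4 every Model library was nonetheless below Normal 2.

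Other defence genes rose. Saa3, an acute phase protein whose paralogs make its count uncertain, had 6.07, 7.24 and 1.62 in Normal and 112, 235 and 27.1 CPM in Model (log2 fold change 4.65 ± 0.83, adjusted p = 0.0167, largest 0.0659 without Normal 3). Lyz2, the lysozyme of myeloid cells, had 253, 320.3 and 182 in Normal and 571, 688 and 793 CPM in Model (log2 fold change 1.44 ± 0.22, adjusted p = 0.0102). Both were clear of Normal. With Lcn2 they made 3 rises among 20 antimicrobial and acute phase genes, of which Ang4 alone fell (median log2 fold change 2.06, 1.56 to 2.84 with any 1 library left out; rises 1 without Normal 1 or Normal 3 and 5 without Model 1; falls 0 without Normal 3 and 2 without Model 3). Without Model 2 and 3 together, the libraries with the most acinar RNA in their group, the median was -1.54. Regenerating lectins, which kill Gram-positive bacteria and are also made by injured pancreas, were high in Model 2 and 3 alone. Reg3g had 91.8, 51.1 and 2.48 in Normal and 5.74, 366 and 274 CPM in Model. Reg3b had 261, 211 and 2.88 in Normal and 16.8, 2774 and 1946 CPM in Model. Neither passed, and the order of their 4 highest libraries was that of the acinar sum. How much of the Reg signal came from which tissue was not tested.

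Of 13 claudins 2 rose (0 without Normal 1, Normal 2 or Normal 3 and 1 without Model 1, Model 2, Model 3, Atorvastatin 1, Atorvastatin 2 or Atorvastatin 3). The pore-forming Cldn2 had 0.0142, 0.0877 and 0.0642 in Normal and 18.3, 117 and 0.205 CPM in Model, so that Model 2 alone held most of it (ratio of means 814, counting interval 278 to 3950; adjusted p = 0.0299, largest 0.133 without Normal 3). Cldn10, which pancreatic cells also express, had 0.539, 0.313 and 0.398 in Normal and 0.708, 3.2 and 2.7 CPM in Model (log2 fold change 2.40 ± 0.59, adjusted p = 0.0486, largest 0.178 without Normal 3), highest in the libraries with acinar RNA, and that RNA's part was not tested. Cldn15, a cation pore, had 163, 142 and 213 in Normal and 18.6, 62.6 and 91.7 CPM in Model and missed the threshold. Of 19 fetal-like and wound-associated epithelial genes 2 rose, Ly6a (338, 526 and 421 in Normal and 1153, 849 and 1283 CPM in Model; log2 fold change 1.35 ± 0.23, adjusted p = 0.0149, largest 0.0806 without Normal 3) and Gja1 (median log2 fold change 0.54, 0.45 to 0.61 with any 1 library left out). Without single libraries the rises numbered 0 without Normal 1 or Normal 3 and 1 without Normal 2 or Model 2. Among 18 enteroendocrine and tuft cell genes 0 passed (5 lower and 1 higher at an unadjusted p under 0.05, 4 lower by DESeq2, 0 by limma-voom). The tuft cell channel Trpm5 had 22.4, 10.9 and 24.5 in Normal and 0.967, 8.92 and 2.72 CPM in Model, lowest in Model 1.

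Metabolic genes moved in both directions. Cyp2c55, a colonic cytochrome P450 that oxidises arachidonic acid, had 561, 320.3 and 371 in Normal and 42.3, 117 and 76.5 CPM in Model (log2 fold change -2.41 ± 0.42, adjusted p = 0.0151, largest 0.0546 without Normal 3). Cyp4f14 had 279, 245 and 203 in Normal and 113, 141 and 106 CPM in Model (log2 fold change -1.02 ± 0.18, adjusted p = 0.0162, largest 0.0617 without Model 1). Both were below Normal in each Model library. Hsd11b1, which regenerates active glucocorticoid, rose instead, with 5.44, 4.82 and 2.74 in Normal and 11.9, 14.9 and 10.3 CPM in Model (log2 fold change 1.51 ± 0.31, adjusted p = 0.0274, largest 0.0903 without Normal 3). In the xenobiotic and steroid list 4 of 31 fell and 1 rose (median log2 fold change -0.60, -0.75 to -0.44 with any 1 library left out; falls 1 without Normal 3 or Model 1 and 2 without Normal 1, Normal 2 or Atorvastatin 2; the rise 0 without Normal 1, Normal 2, Normal 3, Model 1 or Model 2). The falls were 12.9% of this list against 1.1% of all tested genes, and the rise 3.2% against 4.37%. Pck1, a gene of gluconeogenesis, fell evenly, with 218, 193 and 227 in Normal and 79, 85.1 and 81.5 CPM in Model (log2 fold change -1.38 ± 0.23, adjusted p = 0.0142, largest 0.0596 without Normal 3).

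The tryptophan-degrading enzyme Ido1 had 15.9, 39.6 and 5.46 in Normal and 334, 854 and 161 CPM in Model (log2 fold change 4.47 ± 0.85, adjusted p = 0.0214, largest 0.0796 without Normal 1; at 25074152 to 25087025 on chromosome 8). The tryptophanyl-tRNA synthetase Wars had 154, 153 and 96.1 in Normal and 277, 549.7 and 325 CPM in Model (log2 fold change 1.52 ± 0.30, adjusted p = 0.0238, largest 0.0997 without Normal 3). Both were highest in Model 2. The transporter Slc7a8 rose too (7.86, 12.8 and 8.75 in Normal and 24.5, 35.4 and 29 CPM in Model; log2 fold change 1.59 ± 0.24, adjusted p = 0.0102, largest 0.0547 without Normal 3), and 4 of 19 genes of the list in all (median log2 fold change 0.25, -0.13 to 0.45 with any 1 library left out; 0 without Normal 3, 1 without Normal 1 and 2 without Normal 2; 0 without Model 2 and 3 together). Kynurenine enzymes further down, Kmo, Kynu and Haao, did not pass.

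Of 25 hypoxia and glycolysis genes 6 rose (median log2 fold change 0.46, 0.31 to 0.48 with any 1 library left out; 2 without Normal 3 and 3 without Normal 1, Model 1 or Model 2; 3 without Model 2 and 3 together). Egln3, an oxygen sensor that hypoxia induces, had 37.6, 42.1 and 31 in Normal and 105, 104 and 85 CPM in Model (log2 fold change 1.41 ± 0.17, adjusted p = 0.00431). Pfkfb3, which drives glycolysis, had 29.9, 20.7 and 16.6 in Normal and 75, 98.3 and 69.6 CPM in Model (log2 fold change 1.85 ± 0.25, adjusted p = 0.00627). Hexokinase 3 (Hk3), found in myeloid cells, had 2.13, 4.64 and 2.06 in Normal and 24.2, 23.9 and 11 CPM in Model (log2 fold change 2.74 ± 0.44, adjusted p = 0.0117, largest 0.064 without Normal 3). The groups were separate in all 3. Vegfa, Car9 and Ldha, textbook targets of the hypoxia factors, did not pass, at log2 fold changes of -0.03 ± 0.22, 0.09 ± 0.19 and -0.07 ± 0.16. Of 32 nuclear subunits of oxidative phosphorylation 0 passed (1 lower at an unadjusted p under 0.05, 1 lower by DESeq2 and 0 by limma-voom; median log2 fold change -0.10, -0.13 to -0.04 with any 1 library left out).

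In fatty acid oxidation 3 of 20 rose and 1 fell (median log2 fold change -0.05, -0.09 to 0.02 with any 1 library left out; rises 0 without Normal 3 or Model 1 and 1 without Normal 1, Normal 2 or Model 2; the fall 0 without Normal 1, Normal 2, Normal 3, Model 1, Model 3, Atorvastatin 1, Atorvastatin 2 or Atorvastatin 3). Cpt1a, the gate of mitochondrial import, had 272, 307 and 276 in Normal and 451, 400.0 and 462 CPM in Model (log2 fold change 0.62 ± 0.15, adjusted p = 0.0445, largest 0.178 without Normal 3). Bdh1, a ketone enzyme, had 159, 164 and 163 in Normal and 129.9, 108 and 125 CPM in Model (log2 fold change -0.42 ± 0.10, adjusted p = 0.0478, largest 0.164 without Normal 3). Of prostaglandin and leukotriene genes 3 of 20 rose, among them the thromboxane synthase Tbxas1 (3.14, 3.62 and 3.85 in Normal and 8.62, 7.11 and 8.78 CPM in Model; log2 fold change 1.21 ± 0.18, adjusted p = 0.0102) and Ptges (6.42, 6.01 and 6.75 in Normal and 24.3, 18.6 and 12.1 CPM in Model; log2 fold change 1.52 ± 0.33, adjusted p = 0.0333, largest 0.127 without Normal 3), and 1 fell (rises 1 without Normal 1 or Normal 3; the fall 0 without Normal 3, Model 1, Model 2 or Model 3). Ptgs2, the inducible cyclooxygenase, had 6.44, 4.42 and 4.84 in Normal and 19.4, 21.3 and 6.38 CPM in Model, with Model 3 near Normal. The member that fell was Pla2g4c, with 524, 17.2 and 77.8 in Normal and 1.96, 5.37 and 2.63 CPM in Model (log2 fold change -5.96 ± 1.18, adjusted p = 0.0252, largest 0.0915 without Model 1).

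Some metal-handling genes rose. The metallothioneins Mt1 and Mt2, small proteins that bind zinc and copper, had 28, 37.9 and 36.6 in Normal and 230.4, 177 and 182 CPM in Model (log2 fold change 2.52 ± 0.24, adjusted p = 0.00287; at 94905710 to 94906955 on chromosome 8) and 16.9, 20.3 and 13.8 in Normal and 222, 127 and 143 CPM in Model (log2 fold change 3.27 ± 0.34, adjusted p = 0.00306; at 94899292 to 94900196 on chromosome 8). Steap4, a metalloreductase, had 11.3, 13.7 and 6.3 in Normal and 56.7, 68 and 56.3 CPM in Model (log2 fold change 2.53 ± 0.27, adjusted p = 0.00347). Hmox1, which degrades haem, had 8.76, 7.89 and 6.36 in Normal and 27.5, 27.4 and 19.8 CPM in Model (log2 fold change 1.70 ± 0.22, adjusted p = 0.00613). The spread within Model was small beside the distance from Normal in each of the 4 genes. Haptoglobin (Hp), with 36.4, 106 and 18.9 CPM in Model 1 to 3, and ceruloplasmin (Cp) rose as well, 6 of 17 in all (median log2 fold change 0.54, 0.49 to 0.60 with any 1 library left out), and 5 did so without Model 2 and 3 together. The transferrin receptor gene Tfrc had 394, 285 and 234 in Normal and 96.8, 111 and 187 CPM in Model. The NRF2 target Gclm had 34.5, 36.9 and 38.4 in Normal and 32.2, 32.1 and 41 CPM in Model; neither passed.

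Upstream sequences of the metallothioneins are shown because metal response elements lie there in the textbook account. They are the 250 bases before each start from RefSeq, GRCm38.p6, at chr8:94178839-94179088 and chr8:94172368-94172617, both on the plus strand, and capitals mark TGCACNC or TGCGCNC on either strand.
Mt1: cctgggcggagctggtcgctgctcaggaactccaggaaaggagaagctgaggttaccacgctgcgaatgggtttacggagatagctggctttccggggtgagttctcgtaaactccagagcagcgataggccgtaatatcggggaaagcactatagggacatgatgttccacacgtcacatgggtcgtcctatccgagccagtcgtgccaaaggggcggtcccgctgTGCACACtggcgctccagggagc
Mt2: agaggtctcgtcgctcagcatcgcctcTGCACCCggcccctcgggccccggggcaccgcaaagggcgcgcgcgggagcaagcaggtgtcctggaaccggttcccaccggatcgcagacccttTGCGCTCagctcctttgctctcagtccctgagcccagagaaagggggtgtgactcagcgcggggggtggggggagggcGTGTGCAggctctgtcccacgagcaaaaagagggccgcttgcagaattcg
Within these windows Mt1 holds 1 match, 23 bases before its start, and Mt2 holds 3, at 223, 128 and 50 bases. Bases after the RefSeq start were not searched, so matches there are not counted. TGCACNC occurs in 10.4% and TGCGCNC in 12.5% of all windows, so a single match was common.

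Clock genes moved in opposite directions. Nfil3, a repressor of clock output genes that also acts in lymphocytes, had 4.31, 2.66 and 2.4 in Normal and 17.6, 27.2 and 14.3 CPM in Model (log2 fold change 2.66 ± 0.33, adjusted p = 0.0047; at 53121245 to 53135109 on chromosome 13). Arntl, the activator Bmal1, had 12.9, 16.7 and 11.8 in Normal and 36.4, 27.3 and 36.6 CPM in Model (log2 fold change 1.28 ± 0.21, adjusted p = 0.0122, largest 0.0674 without Normal 3). Both were above Normal in every Model library. The output gene Dbp had 35.5, 45.7 and 54.9 in Normal and 19.4, 12.5 and 16.2 CPM in Model (log2 fold change -1.50 ± 0.25, adjusted p = 0.0137, largest 0.0612 without Normal 3). The repressor Ciart had 13.2, 18.6 and 18.7 in Normal and 6.76, 6.39 and 6.71 CPM in Model (log2 fold change -1.35 ± 0.27, adjusted p = 0.0252, largest 0.0986 without Normal 3). Dbp and Ciart were below Normal in every Model library. Nr1d2 and Tef fell as well, so that 2 of 17 rose and 4 fell (median log2 fold change -0.47, -0.52 to -0.37 with any 1 library left out; rises 1 without Normal 3; falls 0 without Normal 3, 1 without Model 1 and 2 without Normal 2 or Model 2; falls 0 without Model 2 and 3 together). Per2 (167, 206 and 209 in Normal and 131, 108 and 144 CPM in Model), Nr1d1 (95.3, 88.3 and 103 in Normal and 71, 34.1 and 67.2 CPM in Model) and Cry2 lay below Normal without passing. The labels give no time of day for the collection of tissue, and its part in these values was not tested.

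The window before Ciart is shown for its cluster of E-boxes, the site that the clock activators bind. It covers chr3:95882229-95882478 on the minus strand (RefSeq, GRCm38.p6), with CACGTG in capitals.
Ciart: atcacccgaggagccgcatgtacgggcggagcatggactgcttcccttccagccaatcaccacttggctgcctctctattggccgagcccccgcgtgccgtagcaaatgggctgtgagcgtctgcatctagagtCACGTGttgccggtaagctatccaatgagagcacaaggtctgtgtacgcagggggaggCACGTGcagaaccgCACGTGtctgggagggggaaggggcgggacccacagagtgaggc
The palindrome lies 116, 58 and 44 bases before the start. At least 1 copy occurs in 6.02% of all windows and 3 or more in 0.0609%. Among the 7 clock genes in the table Tef also held it, and Dbp, Nr1d1, Nr1d2, Nfil3 and Arntl did not in these windows.

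**Figure D5:**
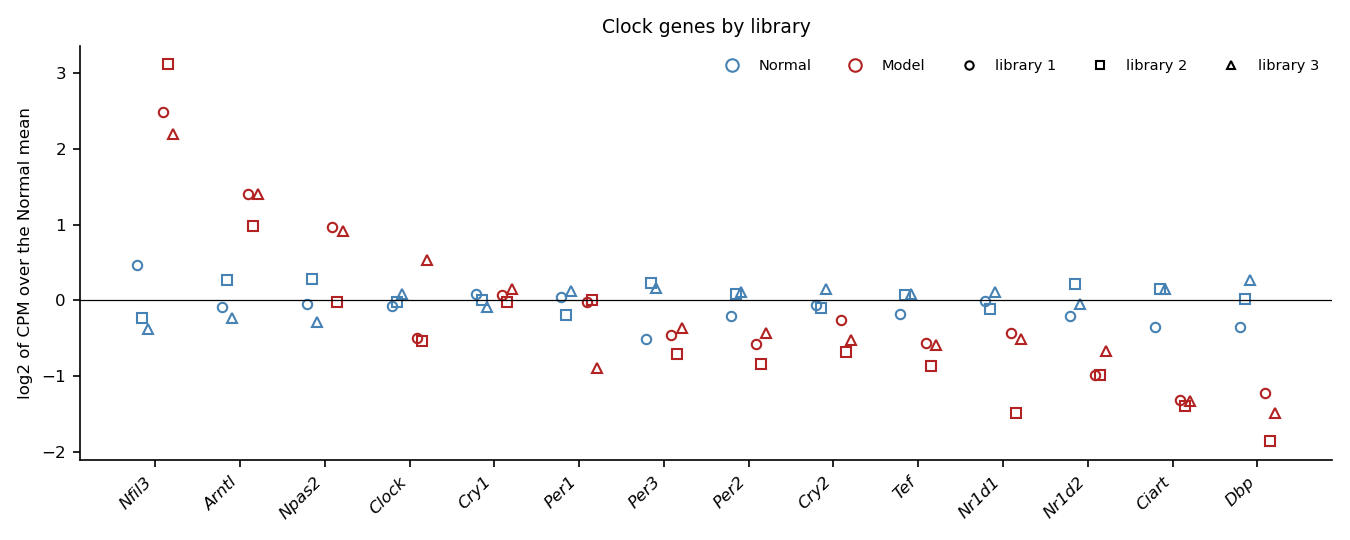
Log2 of each library's CPM over the Normal mean for 14 clock genes in Normal 1 to 3 (blue) and Model 1 to 3 (red), with circles, squares and triangles for libraries 1, 2 and 3. Nfil3 and Arntl lie above 0 in every Model library, and Per2, Cry2, Tef, Nr1d1, Nr1d2, Ciart and Dbp below every Normal library.

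Several falls outside the lists were even across libraries. Tppp, a tubulin polymerisation protein, had 161, 152 and 211 in Normal and 23.9, 19.1 and 16.3 CPM in Model (log2 fold change -3.14 ± 0.21, adjusted p = 0.00147; at 74157538 to 74183872 on chromosome 13). Acer1, an alkaline ceramidase of epithelia, had 73, 81.5 and 70.2 in Normal and 26.4, 20.9 and 23.5 CPM in Model (log2 fold change -1.67 ± 0.14, adjusted p = 0.00257; at 57260490 to 57289126 on chromosome 17). Phgr1, an epithelial gene of the gut, had 313, 287 and 304 in Normal and 128, 133 and 110.1 CPM in Model (log2 fold change -1.28 ± 0.14, adjusted p = 0.00315). Every Model library was lower than every Normal library. The brush border protease meprin (Mep1a), which was listed with small intestinal genes, had 395, 362 and 344 in Normal and 137, 193 and 122 CPM in Model (log2 fold change -1.28 ± 0.20, adjusted p = 0.0116). Cipc, a clock-interacting repressor outside the clock list, had 210.1, 243 and 282 in Normal and 129.8, 122 and 136 CPM in Model (log2 fold change -0.92 ± 0.13, adjusted p = 0.007).

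Other lists held few calls. Of 15 enteric neuron and glia genes 2 rose, the tachykinin gene Tac1 (7.64, 8.58 and 10.4 in Normal and 42.5, 14.7 and 32.5 CPM in Model; log2 fold change 1.75 ± 0.35, adjusted p = 0.0261, largest 0.0893 without Normal 3) and the glial filament gene Gfap (4.29, 2.64 and 4.14 in Normal and 15.3, 19.2 and 7.13 CPM in Model; log2 fold change 1.91 ± 0.39, adjusted p = 0.0274, largest 0.0988 without Normal 3). The rises in this list numbered 0 without Normal 1, Normal 2, Normal 3 or Model 1 and 1 without Model 2. They numbered 0 by limma-voom, in the fit of Normal and Model alone and with the replicate block. Krt80 was the rise among 16 keratins, Nr4a3 among 22 immediate early genes (2.38, 1.9 and 2.06 in Normal and 7.31, 6.21 and 8.39 CPM in Model; log2 fold change 1.79 ± 0.21, adjusted p = 0.00431) and Arg2, an arginase, among 19 polyamine and arginine genes (1.04, 1.64 and 0.822 in Normal and 5.19, 5.2 and 16.2 CPM in Model; log2 fold change 2.92 ± 0.59, adjusted p = 0.0269, largest 0.122 without Normal 3). Without single libraries the keratin rises numbered 0 without Normal 2, Normal 3, Model 1 or Model 2, the immediate early rises 3 without Atorvastatin 1, and the polyamine and arginine rises 0 without Normal 1, Normal 2 or Normal 3 and 2 without Model 3. Arg2 was highest in Model 3. The single rise was 6.2% of the keratins, 4.5% of the immediate early genes and 5.3% of the polyamine and arginine genes. These shares are near the 4.37% of all tested genes that rose. Of 21 chaperone and unfolded protein response genes 0 passed (1 higher at an unadjusted p under 0.05, 0 by DESeq2 and limma-voom). Of 13 mitochondrially encoded genes 0 passed (9 lower at an unadjusted p under 0.05, 5 lower by DESeq2, 0 by limma-voom; median log2 fold change -0.47, -0.56 to -0.38 with any 1 library left out).

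Among the largest rises, Prss22, an epithelial serine protease, was at 0 in Normal and had 4.32, 7.61 and 2.21 CPM in Model 1 to 3 (at 24212508 to 24217074 on chromosome 17). Its level was at least 89.5-fold higher, with an adjusted p of 0.00306. Serpina3n, a secreted protease inhibitor with near-identical paralogs, had 23.7, 27.8 and 21.5 in Normal and 363, 303 and 199 CPM in Model (log2 fold change 3.57 ± 0.31, adjusted p = 0.00257; at 104372988 to 104380588 on chromosome 12). Serpina3m had 0.227, 0.0626 and 0.116 in Normal and 15.8, 7.05 and 5.89 CPM in Model (ratio 70.8, counting interval 35.7 to 165). The myeloid receptor gene Tarm1 had 0, 0.0501 and 0 in Normal and 3.6, 3.1 and 0.804 CPM in Model, with 1 read pair in Normal (ratio 150, counting interval 26.5 to 5950; adjusted p = 0.00875). These genes were above Normal in all 3 Model libraries. Fetub (0, 0.0501 and 0.0514 in Normal and 0.248, 4.21 and 5.03 CPM in Model; adjusted p = 0.0319, largest 0.127 without Normal 3) and Itih4 (0.326, 0.301 and 0.167 in Normal and 0.837, 26.5 and 14.4 CPM in Model; log2 fold change 5.71 ± 1.14, adjusted p = 0.0265, largest 0.125 without Normal 3), which encode plasma proteins, were high in Model 2 and 3 alone, the libraries with acinar RNA. The part of that RNA in these rises was not tested.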

How the data were processed

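RNA-seq of mouse colon was measured in 3 Normal, 3 Model and 3 Atorvastatin libraries, made from 1.3 µg of RNA with a SMARTer mRNA kit, per the labels' protocols. The authors deposited 1 table of estimated counts for 21720 genes, of which 3481 were at 0 in all libraries. The submitters' processing notes name bcl2fastq 2.0, HISAT2, StringTie, DESeq2 and the builds mm39 and rn6. The values behave like about 4 estimated counts per read pair (1997 values of 4 against 346 of 1), so counting intervals, exact and for counting error only, were computed on counts divided by 4. How reads shared by near-identical genes were assigned is not given in the sources used here. Gene coordinates are those of the deposited table; promoter windows come from RefSeq with GRCm38.p6 and were not mixed with them.

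Counts were filtered with filterByExpr, scaled by TMM and fitted with edgeR 4.0.16 (R 4.3.3) on all 9 libraries with the group as the only term, and the contrast was Model minus Normal. SEs are the absolute log2 fold change over the square root of F. DESeq2 1.42.0, limma 3.58.1 (voom), other scalings and filters, a replicate block and fits without single libraries were the alternatives. The fit was checked on simulated data. Named genes were the called genes with the largest changes (no overlap, mean of at least 1 CPM) or the smallest p, up to 4 called members of each list, and members whose values in single libraries or failure to pass are described. The members and lists were chosen with earlier results of these data known. Some genes are not reported here.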

Additional observations from a re-analysis of the deposited data

How the results depend on the processing

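Of the alternatives, 4 moved the 883 calls (706 higher, 177 lower) by more than 1.5 times. DESeq2's test called 1973 genes (1352 higher, 621 lower), including all 883, and lowered the share of rises to 68.5%. A fit of the Normal and Model libraries alone called 474 (398 and 76). Without Model 2 and Model 3 together 476 were called (335 and 141), 327 of them shared, with the lone Model library assumed to vary like the other groups, and rises made up 70.4%. With the replicate number as a block 402 were called (351 and 51), 392 of them shared. The labels give no pairing. Deviations from the group mean correlated at -0.209, -0.162 and -0.0838 in same-numbered libraries and at -0.115 to 0.259 in differently numbered ones. So few pairs cannot decide whether the numbers mark a pairing. What the lower count with the block reflects was not tested. With 1 library left out the calls ran from 164 to 1164, the rises from 142 to 861 and the falls from 22 to 303. The causes of these shifts were not tested. Other scalings, filters, limma-voom, counts divided by 4 and removal of acinar and small intestinal genes gave 702 to 910 calls. No called gene named here reversed. Genes under 1 CPM had a median SE of 0.842, against 0.173 at 10 to 100 CPM, so changes in the former were estimated less precisely. The reason was not tested.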
